A study of Mus musculus with 9 samples.

Results

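Several ribosomal proteins of the mouse are encoded by a pair of related genes, and 5 such pairs were followed in sorted nephron progenitors: *Rpl22* with *Rpl22l1*, *Rps27* with *Rps27l*, *Rpl7* with *Rpl7l1*, *Rpl36a* with *Rpl36al*, and *Rpl39* with *Rpl39l*. The genes were chosen by symbol. Of these 10 genes, 9 were measured, among 26858 genes in all, and *Rpl39l* was not analysed here, so 4 pairs could be compared as pairs and *Rpl39* is described alone. The cells were sorted by eGFP from kidneys at E18.5 (the age in embryonic days). In both genotypes eGFP came fused to Cre recombinase from a *Six2*-driven transgene, so the transgene and the sorting marker were shared by all samples. The make-up of the sorted cells could still differ. The paper reports a lower percentage of eGFP+ cells in mutant kidneys. It does not fully exclude that differentiating control cells with low GFP were captured. The control group, Cont, was *Six2-Qpc*+/- and had lost 1 allele of *Uqcrq*, the gene of the complex III subunit QPC, in SIX2 cells (4 libraries, numbered 71, 72, 73 and 76), and the mutant group, QpcKO, was *Six2-Qpc*-/- (5 libraries, numbered 74, 75, 77, 78 and 79). Wild-type cells were not part of the comparison, and the labels do not say whether a library came from 1 embryo or several, so p-values measure only the spread between these libraries.

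A ribosome carries about the same set of proteins in every cell, and most of them are made from a single active gene. A paralog pair offers a choice: the -like member encodes a protein that can take the place of the other in the ribosome or, in some cases, works elsewhere. RPL22 and RPL22L1 are large subunit proteins, and RPL22 is known to bind the *Rpl22l1* transcript and hold its level down. RPS27 and RPS27L belong to the small subunit, and *Rps27l* is a target of p53. RPL7 is a large subunit protein and RPL7L1 acts in the assembly of that subunit. *Rpl36a* lies on the X chromosome and *Rpl36al* is its autosomal copy. *Rpl39* is also X-linked, and its autosomal copy *Rpl39l* is best known from the testis.

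In GRCm38 with the GENCODE M21 annotation, the members of each measured pair lie on different chromosomes. The locations are *Rpl22* (ENSMUSG00000028936) at chr4:152325742-152334071 on the + strand, *Rpl22l1* (ENSMUSG00000039221) at chr3:28805436-28807424 on the + strand, *Rps27* (ENSMUSG00000090733) at chr3:90212522-90213651 on the - strand, *Rps27l* (ENSMUSG00000036781) at chr9:66946086-66949516 on the + strand, *Rpl7* (ENSMUSG00000043716) at chr1:16101295-16104662 on the - strand, *Rpl7l1* (ENSMUSG00000063888) at chr17:46773907-46782672 on the - strand, *Rpl36a* (ENSMUSG00000079435) at chrX:134585654-134588062 on the + strand, *Rpl36al* (ENSMUSG00000049751) at chr12:69182731-69184083 on the - strand and *Rpl39* (ENSMUSG00000079641) at chrX:37082520-37085402 on the - strand.

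How far the members of a pair can be told apart by reads depends on their sequence, so a stretch of each coding sequence is shown (GENCODE M21 transcripts, 5′ to 3′), with capitals at the bases that differ between the members. Over the aligned coding sequence, *Rpl22* and *Rpl22l1* shared 67.5% of bases. The stretch below covers coding bases 175 to 264 of *Rpl22* and 157 to 246 of *Rpl22l1*, and 26 of 90 bases differ.
Rpl22: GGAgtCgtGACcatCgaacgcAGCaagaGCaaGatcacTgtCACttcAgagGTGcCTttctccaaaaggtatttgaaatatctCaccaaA
Rpl22l1: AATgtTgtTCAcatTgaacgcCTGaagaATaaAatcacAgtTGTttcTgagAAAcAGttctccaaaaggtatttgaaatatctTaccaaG

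*Rps27* and *Rps27l* shared 76.1% of coding bases and have equal coding lengths of 255 bases. In their first 90 coding bases, 24 differ.
Rps27: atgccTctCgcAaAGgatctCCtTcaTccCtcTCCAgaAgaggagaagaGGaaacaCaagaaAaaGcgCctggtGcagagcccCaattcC
Rps27l: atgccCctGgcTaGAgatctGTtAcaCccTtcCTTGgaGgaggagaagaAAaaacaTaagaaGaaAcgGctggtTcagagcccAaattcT

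*Rpl7* and *Rpl7l1* were the most distant pair, with 54.5% of aligned coding bases shared. In coding bases 396 to 485 of *Rpl7* and 324 to 413 of *Rpl7l1*, 39 of 90 bases differ.
Rpl7: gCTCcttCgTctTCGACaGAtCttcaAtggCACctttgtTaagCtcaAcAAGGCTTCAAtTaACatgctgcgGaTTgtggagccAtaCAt
Rpl7l1: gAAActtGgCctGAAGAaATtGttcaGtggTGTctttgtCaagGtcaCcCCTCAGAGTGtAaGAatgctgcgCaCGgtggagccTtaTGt

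*Rpl36a* and *Rpl36al* were the closest pair, with 87.9% of coding bases shared and 14 differences in the first 90 bases, spread along the stretch. *Rpl39* and *Rpl39l* shared 85.3%.
Rpl36a: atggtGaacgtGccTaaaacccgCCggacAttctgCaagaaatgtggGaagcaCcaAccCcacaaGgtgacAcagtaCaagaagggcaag
Rpl36al: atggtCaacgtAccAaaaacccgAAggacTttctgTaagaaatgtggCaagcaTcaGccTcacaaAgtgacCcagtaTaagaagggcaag

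In none of the 5 pairs did the transcripts of both members hold a run of 50 identical bases (0 shared 50-base words), so a read of that length or longer that matches without error belongs to 1 member only. Sequence was shared with other genes instead. The share of a member's 50-base words found in transcripts of other genes was 25.0% for *Rps27*, 22.5% for *Rpl36a*, 22.1% for *Rpl36al* and 21% for *Rpl7*. It was 12.8% for *Rpl22l1*, 11.2% for *Rps27l*, 6.7% for *Rpl39*, 6.6% for *Rpl7l1* and 3.5% for *Rpl22*. Reads of the first 4 genes are therefore the least certain in their assignment. *Rpl22l1* also overlaps the antisense gene *Gm33051* over 159 bp, which libraries without strand information cannot separate, and *Rpl36al* overlaps *Gm49383* over 332 bp on the same strand.

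Transcripts of ribosomal protein genes typically start in a run of pyrimidines, the sequence through which their translation follows growth signals. A run of 8 or more C or T on the gene's strand, within 50 bases of the RefSeq start, was present in 8 of the 9 genes with a promoter entry (*Rpl7* has none). The same run was found in 81.0% of the core ribosomal protein genes with an entry and in 35.7% of all promoter entries. 30 bases around the longest run are shown in GRCm38.p6 for the 3 genes on which the comparisons below turn and for *Rps27*, with the run in capitals.
Rpl22l1 (chr3:28805499-28805528, + strand): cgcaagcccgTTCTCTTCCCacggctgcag
Rps27 (chr3:90213632-90213661, - strand): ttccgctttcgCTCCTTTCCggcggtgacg
Rps27l (chr9:66946053-66946082, + strand): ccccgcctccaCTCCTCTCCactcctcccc
Rpl7l1 (chr17:46782671-46782700, - strand): cgtcgaggcgggCCTCTCTaccccgcccgg
*Rpl7l1* was the exception, with a longest run of 7 bases. Counted from the annotated start, the runs of *Rpl22l1* (2 to 11) and *Rps27* (−2 to 7) lay at it. Those of *Rpl22* (−39 to −26), *Rps27l* (−22 to −14) and *Rpl39l* (−26 to −18) lay upstream. Those of *Rpl36a* (28 to 40), *Rpl36al* (29 to 38) and *Rpl39* (37 to 50) lay downstream. A run is a match of letters, and starts in the annotation can be off by some bases. Whether a run acts in translation was not tested.

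The libraries held between 21040536 and 23986458 counted reads. Levels are given as CPM, counts per 1000000 counts of the TMM-normalized library. *Uqcrq* was 94.1 ± 13.3 CPM (SD, n = 4) in Cont and 21.3 ± 4.45 CPM (SD, n = 5) in QpcKO, and the lowest control library (76.8 CPM) was above the highest mutant library (28.2 CPM), as the labels have it. *Six2*, which defines the sorted cells, stood at 571 ± 53.4 CPM in Cont and 704 ± 102 CPM in QpcKO, and none of the 6 progenitor markers passed the test (1 of 6 at an unadjusted p under 0.05). The ureteric bud markers *Ret* and *Wnt9b* had at most 13 and 7 reads in any library. The other ureteric bud markers on the list had more, with 85 to 437 reads for *Wnt11* and 21 to 449 for *Krt8*. Other cell markers did move with genotype. All 6 stroma markers were higher in QpcKO and all 6 passed the test, with a summed level of 152 to 237 CPM in Cont and 326 to 773 CPM in QpcKO. Of 5 markers of committed progenitors, all 5 had a lower fitted level, 2 passed the test (*Wnt4* and *Lhx1*) and 4 had an unadjusted p under 0.05, and the sum ran from 298 to 538 CPM in Cont and from 215 to 332 CPM in QpcKO. The summed macrophage markers reached at most 6.41 CPM in Cont and 73.7 CPM in QpcKO, with 0 of 3 past the test (3 of 3 at an unadjusted p under 0.05). The endothelial sum was 0.464 to 0.97 CPM in Cont and 1.15 to 4.65 CPM in QpcKO, with 1 of 2 tested markers past the test. The erythroid sum stayed between 1.31 and 2.66 CPM, and the ureteric bud sum between 5.85 and 28.9 CPM, with no marker past the test (0 of 1 and 1 of 2 tested markers at an unadjusted p under 0.05). The part of these cells in the paralog results was not tested.

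The first comparison asked whether the level of each paralog differed between the genotypes. 8 of the 9 genes had a higher fitted level in QpcKO and 1 (*Rpl7l1*) a lower one, but *Rpl22l1* alone passed the threshold of an adjusted p under 0.05 (edgeR quasi-likelihood test, Benjamini-Hochberg over 14990 genes). That is 1 of 9 by edgeR, where 7.82% of all tested genes were called higher. The count depends on the tool, since DESeq2 called 5 of 9 higher (11.7% of all genes) and limma-voom 7 of 9 (16.1% of all genes). No member was called lower by edgeR, DESeq2 or limma-voom, which called 7.02%, 9.6% and 16.4% of all genes lower. At an unadjusted p under 0.05 in edgeR, 6 of 9 were higher and 0 lower, where 16.3% of all genes were higher. Every QpcKO library was above every Cont library for 4 of the 9 (*Rpl22*, *Rpl22l1*, *Rps27* and *Rpl36a*), where 7.5% of tested genes had this pattern. In bulk RNA, a change in the make-up of the sorted cells and a change in RNA per cell cannot be told apart.

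**Figure D1:**
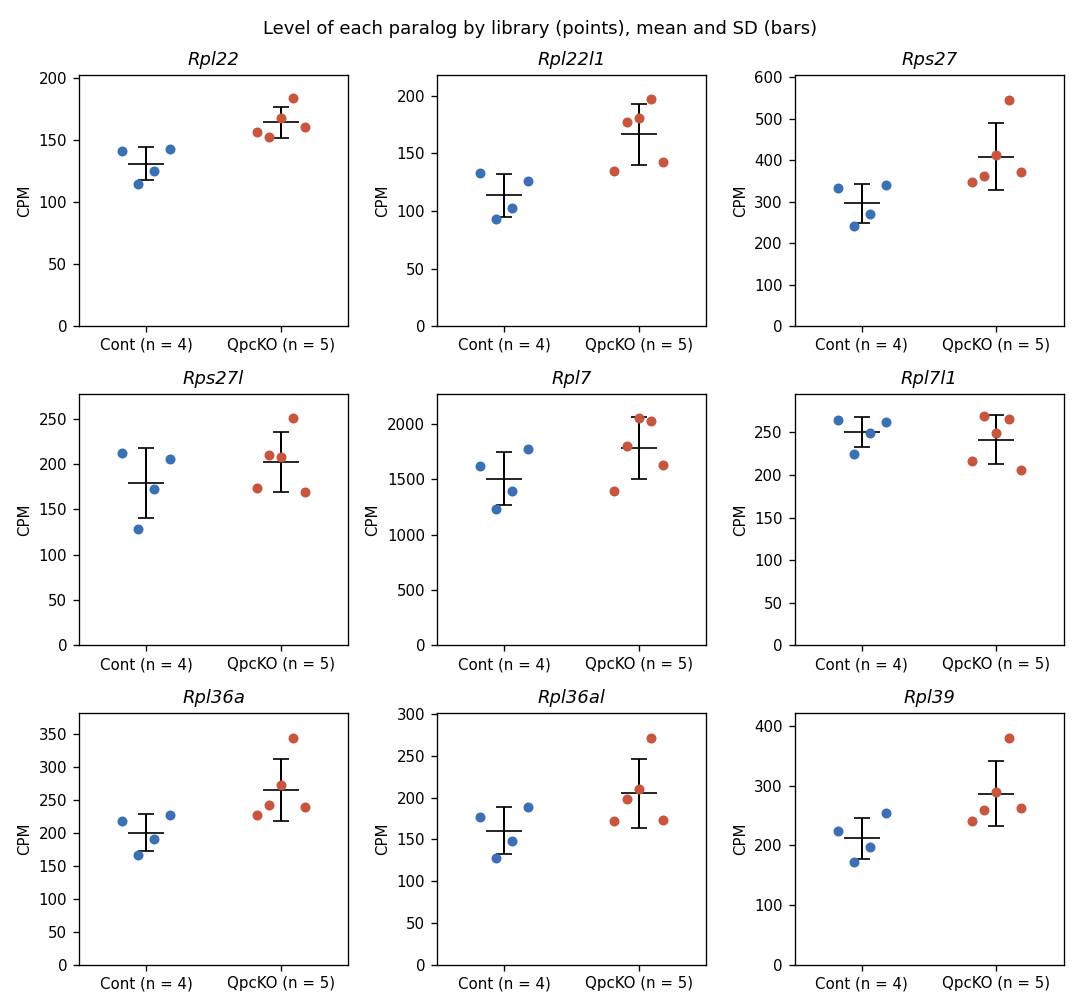
Level of each measured paralog (CPM, linear axis from 0) in the 4 Cont and 5 QpcKO libraries. Points are libraries and bars are the mean and SD. The QpcKO points of *Rpl22*, *Rpl22l1*, *Rps27* and *Rpl36a* lie above all Cont points, while those of *Rpl7l1* (206 to 270 CPM) span the Cont points (225 to 264 CPM).

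*Rpl22l1*, whose product can stand in for RPL22, had 132.6, 93.03, 103 and 126.2 CPM in Cont 71, 72, 73 and 76. In QpcKO 74, 75, 77, 78 and 79 it had 134.6, 177, 181, 197 and 142.5 CPM. Replicates 74 and 79 were only just above the highest control, and the other 3 mutant libraries were well above it. The means were 114 ± 18.8 CPM (SD, n = 4) and 166 ± 26.6 CPM (SD, n = 5), a log2 fold change of 0.55 (SE 0.15, where SE is the standard error; adjusted p = 0.0259). The call was lost without Cont 72, Cont 73, QpcKO 75, QpcKO 77 or QpcKO 78, with adjusted p between 0.0511 and 0.0879 and log2 fold changes between 0.46 and 0.53.

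*Rpl22*, its partner and repressor, had 141, 115, 125 and 143 CPM in the Cont libraries in the same order, and 157, 153, 168, 184 and 161 CPM in the QpcKO libraries. The genotypes did not overlap, and the spread within QpcKO was the smaller in proportion of the 2 partners. Its log2 fold change was 0.33 (SE 0.11) and missed the threshold with an adjusted p of 0.059. Both partners had fitted values above 0, and no fall of *Rpl22* was seen beside the rise of *Rpl22l1*. As a sum, the pair went from 245 ± 32.0 CPM (SD, n = 4) to 331 ± 35.9 CPM (SD, n = 5), with a log2 fold change of 0.44 (SE 0.12, adjusted p = 0.0319). It was the only one of 4 pair sums past the threshold, where 7.83% of the rows of that table were called higher. The same 5 left-out libraries took the call away, with adjusted p between 0.0554 and 0.107.

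*Rps27*, a zinc-binding protein of the small subunit, had 332, 242, 270 and 339 CPM in Cont and 346, 363, 414, 546 and 372 CPM in QpcKO. The lowest mutant library was just above the highest control, and QpcKO 78 stood highest. The log2 fold change was 0.46 (SE 0.15, adjusted p = 0.0587). *Rps27l* had 212, 128, 172 and 205 CPM in Cont and 173, 210, 207, 250 and 170 CPM in QpcKO, with much overlap, and its log2 fold change was 0.17 (SE 0.16, adjusted p = 0.504). Their sum had a log2 fold change of 0.36 (SE 0.15, adjusted p = 0.129).

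*Rpl7*, the most abundant of the 9 by CPM, had 1623, 1231, 1394 and 1776 CPM in Cont. In QpcKO it had 1395, 1806, 2055, 2032 and 1627 CPM, so that the genotypes overlapped (log2 fold change 0.24, SE 0.15, adjusted p = 0.280). *Rpl7l1*, the assembly factor, had 264, 225, 250 and 262 CPM in Cont and 216.6, 269.5, 249, 265 and 206 CPM in QpcKO. Its log2 fold change was −0.05 (SE 0.11, adjusted p = 0.794), the only fitted value under 0 among the members. The pair sum had a log2 fold change of 0.20 (SE 0.14, adjusted p = 0.350).

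*Rpl36a* had 218, 166, 190 and 227 CPM in Cont and 228, 243, 273, 345 and 239 CPM in QpcKO. QpcKO 74 (227.7 CPM) was barely above Cont 76 (227.3 CPM), and the log2 fold change was 0.41 (SE 0.14, adjusted p = 0.0718). *Rpl36al* had 177, 128, 148 and 189 CPM in Cont and 172, 199, 210, 272 and 173 CPM in QpcKO, with 2 mutant libraries inside the control range (log2 fold change 0.35, SE 0.16, adjusted p = 0.143). Their sum had a log2 fold change of 0.38 (SE 0.15, adjusted p = 0.0989). *Rpl39*, a short protein near the exit of the ribosome's tunnel, had 224, 173, 198 and 254 CPM in Cont and 242, 259, 291, 380 and 264 CPM in QpcKO. QpcKO 74 alone fell inside the control range, and the log2 fold change was 0.44 (SE 0.15, adjusted p = 0.0691). QpcKO 78 held the highest level of 7 of the 9 genes, all but *Rpl7* and *Rpl7l1*.

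The other genes of the ribosome set the scale for these values. All 74 core ribosomal protein genes on the list had a higher fitted level in QpcKO. Of them, 23 passed the threshold, where 7.82% of all tested genes were called higher. These were 10 of 43 in the large subunit and 13 of 31 in the small subunit. The count of 23 rested on single libraries. It was 1 without Cont 72, Cont 73, QpcKO 77 or QpcKO 78. It was 10 to 12 without Cont 71, QpcKO 75 or QpcKO 79, and 47 without QpcKO 74. The share of all tested genes called higher moved too, from 3.64% without Cont 73 to 10.8% without QpcKO 74. The median log2 fold change of the core genes was 0.40, against −0.01 over all genes tested. With 1 library left out, the core median ran from 0.322 to 0.48. The study itself pointed to ribosomal genes on these samples, so this direction is not independent evidence. The median of the 9 paralogs was 0.35. Among the 74 core values, ranging from 0.22 to 1.27, *Rpl22l1* stood above 66, *Rps27* above 56, *Rpl39* above 47, *Rpl36a* above 40, *Rpl36al* above 25, *Rpl22* above 16 and *Rpl7* above 2. *Rps27l* and *Rpl7l1* were below all 74. The 3 core genes with the largest rises past the threshold were *Rpl26* (log2 fold change 1.27, SE 0.15, adjusted p = 0.000521), *Rps7* (0.61, SE 0.16, adjusted p = 0.0231) and *Rps20* (0.59, SE 0.16, adjusted p = 0.0243), and no core gene had a fitted value under 0. The value of *Rpl26* is uncertain, because 74.3% of the 50-base words of its pseudogene *Gm15772*, named after its values were seen, also occur in *Rpl26*. *Gm15772* had 3511 to 4592 reads in Cont and 65 to 118 in QpcKO. With the reads of both added, the log2 ratio of the genotype means was 0.67.

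**Figure D2:**
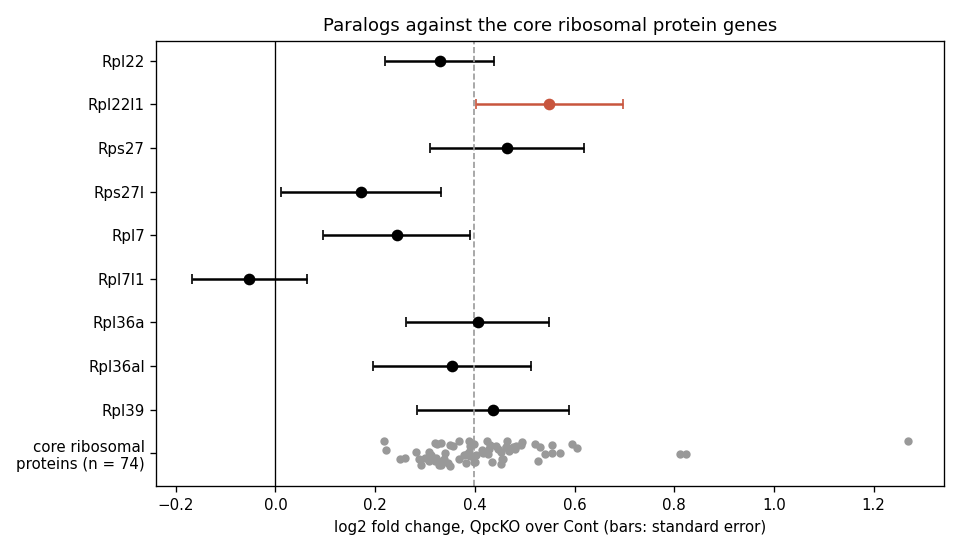
Log2 fold change, QpcKO over Cont, of the 9 paralogs with standard errors (red, adjusted p under 0.05) above the 74 core ribosomal protein genes (grey points, spread vertically for sight only; the dashed line is their median, 0.40). *Rps27l* at 0.17 and *Rpl7l1* at −0.05 lie left of every core gene, and the rightmost core point, *Rpl26* at 1.27, shares sequence with a pseudogene.

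The second comparison asked whether the balance within a pair shifted. The share of a pair's reads that fell on the -like member is taken within a library, so it does not depend on how libraries are scaled to each other. Each difference was tested by a 2-sided exact permutation test that takes every way of dividing the 9 libraries into 4 and 5, and the smallest p it can give is 0.00794. There were 4 such tests, 1 for each pair, and their p-values are not adjusted.

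*Rpl22l1* took 48.4%, 44.8%, 45.1% and 46.9% of the reads of its pair in Cont 71, 72, 73 and 76. It took 46.2%, 53.7%, 51.8%, 51.6% and 47.0% in QpcKO 74, 75, 77, 78 and 79. Replicates 74 and 79 lay within the control range, and the other 3 mutant libraries above it. These are shares of raw reads, not divided by gene length, so 50% is no mark of equal levels. The mean share was 46.3% ± 1.71 (SD, n = 4) in Cont and 50.1% ± 3.30 (SD, n = 5) in QpcKO, a difference of 3.75 percentage points that did not pass the exact permutation test (p = 0.103). A shift of *Rpl22l1* against *Rpl22* was not detected beside its called rise. With 4 and 5 libraries, this does not show that there was none.

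*Rps27l* took 39.0%, 34.6%, 38.9% and 37.7% of its pair's reads in Cont and 33.3%, 36.7%, 33.4%, 31.4% and 31.3% in QpcKO. Cont 72 and QpcKO 75 lay on the side of the other genotype, and the remaining libraries separated. The mean share was 37.6% ± 2.08 (SD, n = 4) in Cont and 33.2% ± 2.18 (SD, n = 5) in QpcKO, a difference of −4.33 percentage points (exact permutation test, p = 0.0397). The result rests on the whole set of libraries. It passed without Cont 72 (−5.33 points, exact p = 0.0179) and without QpcKO 75 (−5.20 points, exact p = 0.0286), and missed the threshold without any other single library (exact p from 0.0571 to 0.0714).

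*Rpl7l1* took 14.0%, 15.5%, 15.2% and 12.8% of its pair's reads in Cont and 13.4%, 13.0%, 10.8%, 11.6% and 11.2% in QpcKO. Cont 76 fell below QpcKO 74 and 75, and the other controls were above all mutants. The mean share was 14.4% ± 1.2 (SD, n = 4) in Cont and 12% ± 1.15 (SD, n = 5) in QpcKO, a difference of −2.37 percentage points (exact permutation test, p = 0.0397). Without Cont 76 the difference was −2.88 points (exact p = 0.0357). Without any other single library it missed the threshold, with exact p from 0.0571 to 0.0857. The difference ran from −2.88 to −2.01 points over these sets, in which the smallest possible p is again larger.

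*Rpl36al* took 44.9%, 43.5%, 43.7% and 45.4% in Cont and 43.0%, 45.0%, 43.6%, 44.1% and 42.1% in QpcKO. The libraries of the genotypes were interleaved, and the means of 44.4% ± 0.895 (SD, n = 4) and 43.5% ± 1.12 (SD, n = 5) differed by −0.84 percentage points (exact permutation test, p = 0.262). This pair also varied least: over all 9 libraries its share stayed between 42.1% and 45.4%. The direction of the shift differed by pair, with the mean share of the -like member higher in 1 pair and lower in 3, of which 2 passed the unadjusted threshold.

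**Figure D3:**
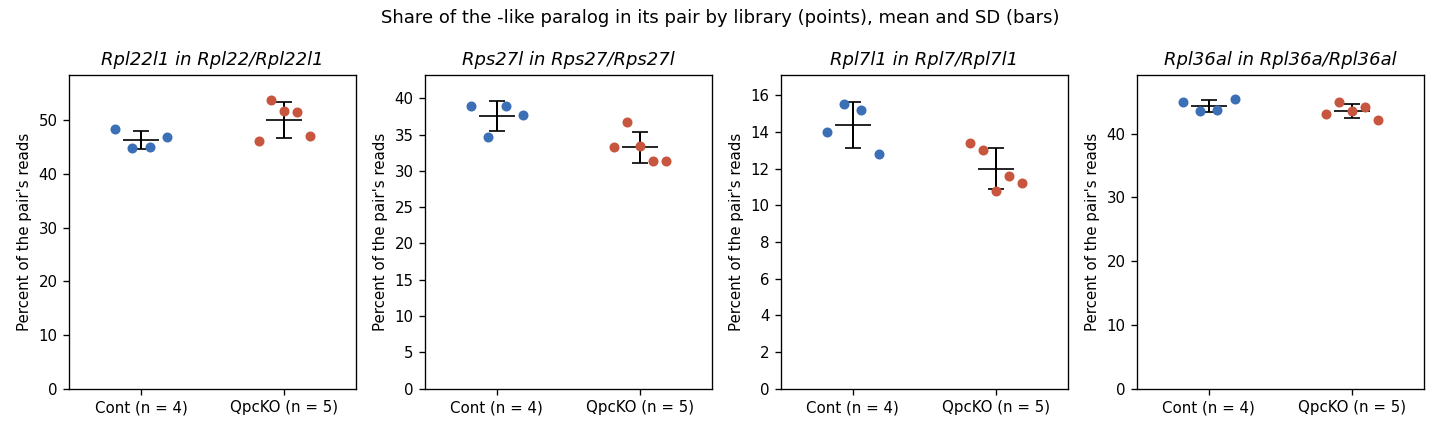
Share of the -like paralog in the reads of its pair (percent, linear axis from 0) in each library. Points are libraries and bars are the mean and SD. The QpcKO points of *Rps27l* (31.3% to 36.7%) and *Rpl7l1* (10.8% to 13.4%) sit lower than most Cont points. Those of *Rpl22l1* spread from 46.2% to 53.7%. Those of *Rpl36al* (42.1% to 45.0%) overlap the Cont points (43.5% to 45.4%), with QpcKO 74 and 79 below them.

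A gene can also be set against the ribosome as a whole within a library. This measure, reads of the gene per 100 reads of the 74 core genes, was added after the fitted values had been seen. The p-values of the 9 members by this measure are not adjusted. A fall by it is relative to the core genes, all of which had a higher fitted level in QpcKO. By it, *Rpl7l1* fell from 0.533 ± 0.0389 (SD, n = 4) in Cont to 0.384 ± 0.0417 (SD, n = 5) in QpcKO, a change of −27.9%, with no overlap between the genotypes (exact permutation test, p = 0.00794). *Rpl7* fell from 3.18 ± 0.114 to 2.82 ± 0.134, a change of −11.4%, also without overlap (exact permutation test, p = 0.00794). 2 of 9 members were thus below every control library, where 20.2% of all tested genes and 9.46% of the core genes, each set against the others, showed this pattern, so the count is close to that of genes at large. Both members of the *Rpl7* pair were lower relative to the core genes.

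*Rps27l* had 0.376 ± 0.0353 reads per 100 core reads in Cont and 0.320 ± 0.0250 in QpcKO (exact permutation test, p = 0.0556), and *Rpl22l1* had 0.240 ± 0.0100 and 0.263 ± 0.0177 (exact permutation test, p = 0.0476). The *Rpl22l1* value missed the threshold in 8 of 9 sets with 1 library left out, with exact p of 0.0536 to 0.125. It passed without QpcKO 79. Over the 9 sets its difference ran from 0.0161 to 0.0282, and the smallest possible p is larger in them. For *Rpl22*, *Rps27*, *Rpl36a*, *Rpl36al* and *Rpl39* the change was between −5.52% and 3.1%, and the exact permutation test gave p from 0.31 to 0.817. No difference passed the test for these 5, which does not show that there was none.

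**Figure D4:**
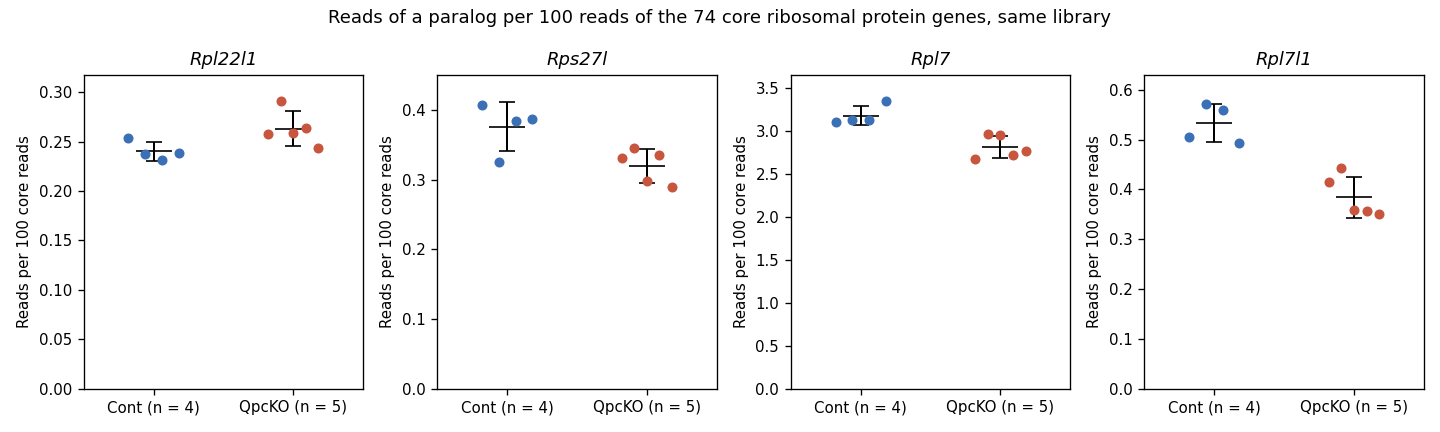
Reads of 4 paralogs per 100 reads of the 74 core ribosomal protein genes in the same library (linear axis from 0). Points are libraries and bars are the mean and SD. *Rpl7* and *Rpl7l1* are lower in every QpcKO library than in any Cont library, while the genotypes overlap for *Rpl22l1* and *Rps27l*.

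Levels of different genes can be compared only per length. In CPM per kilobase of gene length in the table, the order in Cont was *Rps27* (1160 ± 185), *Rpl7* (943 ± 151), *Rpl39* (346 ± 56.9), *Rps27l* (312 ± 67.1), *Rpl36a* (247 ± 34.4), *Rpl22l1* (232 ± 38.4), *Rpl36al* (125.7 ± 21.8), *Rpl7l1* (96.0 ± 6.85) and *Rpl22* (63.9 ± 6.53; SD, n = 4 each). The mean ± SD ranges of neighbours overlapped between *Rps27* and *Rpl7* and along the series from *Rpl39* to *Rpl22l1*, and not at the other steps. The length for *Rps27* was 255 bp, its coding length alone, which raises its value per length against genes whose length includes untranslated ends. In QpcKO the order differed by 1 exchange, *Rpl22l1* (340 ± 54.4) before *Rpl36a* (327 ± 58.3), within their spread. The order depends on the lengths used. The table gives *Rpl22l1* 489 bp and *Rpl22* 2051 bp, while all annotated exons of these genes in GENCODE M21 cover 1989 and 2911 bp. With table lengths, *Rpl22l1* made up 78.3% ± 1.16 (SD, n = 4) of its pair in Cont and 80.7% ± 2.07 (SD, n = 5) in QpcKO, and with the length of all annotated exons 55.8% ± 1.69 and 59.4% ± 3.19. With table lengths, *Rps27l* made up 21.1% ± 1.46 and 18.1% ± 1.47 of its pair, *Rpl7l1* 9.33% ± 0.825 and 7.72% ± 0.773, and *Rpl36al* 33.7% ± 0.811 and 32.9% ± 1.01. With all annotated exons these means were 43.5% and 38.9% for *Rps27l*, 11.4% and 9.5% for *Rpl7l1*, and 49.4% and 48.5% for *Rpl36al*, so the level of the partners relative to each other is uncertain while the direction between genotypes was the same.

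Across the 9 libraries, the log2 CPM of the partners correlated with r = 0.98 for *Rpl36a* and *Rpl36al*, 0.927 for *Rpl22* and *Rpl22l1*, 0.821 for *Rps27* and *Rps27l* and 0.552 for *Rpl7* and *Rpl7l1*. These are descriptions, since the points share genotype and library. Of the 9348 other genes whose mean level was 10 CPM or more, those most like *Rpl22l1* by this measure were *Imp3* (r = 0.992), a protein of the small-subunit processome, *Fam104a* (r = 0.991) and *Polr1d* (r = 0.986), a subunit shared by RNA polymerases I and III.

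Copies of the members that bear a member's name were few in reads. *Rps27rt* had 51 to 117 reads per library, *Rpl39-ps* 60 to 85, *Rpl36a-ps3* 27 to 52 and *Rpl36a-ps1* 17 to 29, and none of the 4 passed the test. *Rps27-ps1* had at most 17 reads, and *Rpl22-ps1* and *Rpl36a-ps4* at most 2. Further pseudogenes share 20 or more 50-base words with a member. Of those counted, *Gm12174* (at least 78 reads in each library) and *Gm6274* (32 to 73 reads), both copies of *Rpl7* and named after their values were seen, held the most, and each of the others had at most 10. Other such copies, among them *Rpl7-ps7*, *Gm17241* and *Gm14706*, were not analysed here. Of the other ribosomal paralogs, *Rps4l*, a copy of the X-linked *Rps4x*, fell from 105 ± 20.2 CPM (SD, n = 4) to 60.8 ± 20.04 CPM (SD, n = 5), with a log2 fold change of −0.78 (SE 0.23, adjusted p = 0.0385) and no overlap between the genotypes. *Rpl37rt* had a log2 fold change of 0.29 (SE 0.22, adjusted p = 0.407). *Rpl3l*, the muscle form of RPL3, had 0 to 18 reads.

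Because *Rps27l* is a p53 target and imbalance among ribosomal proteins is known to stabilize p53, a list of 12 p53 targets was examined. 3 of 12 were called higher, where 7.82% of all genes were, and 0 lower. By fitted level, 9 were higher and 3 lower. At an unadjusted p under 0.05, 5 of 12 were higher, where 16.3% of all genes were. *Mdm2*, the ubiquitin ligase that limits p53, rose from 99.8 ± 4.26 CPM (SD, n = 4) to 127 ± 8.42 CPM (SD, n = 5), with a log2 fold change of 0.34 (SE 0.10, adjusted p = 0.0359). *Cdkn1a*, the cell cycle inhibitor p21, had a log2 fold change of 0.20 (SE 0.20, adjusted p = 0.541). The other 2 called genes were *Zmat3* (log2 fold change 1.05, adjusted p = 0.0231) and *Sesn2* (1.62, adjusted p = 0.00689), both named after their values were seen. The median of the list was 0.27, and *Rps27l* at 0.17 was below it. Whether p53 was active, or what raised the called genes, was not tested.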

How the data were processed

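RNA was amplified from sorted cells with a low-input kit, poly(A) selected and sequenced without strand information. The submitters' processing notes name STAR, DESeq2 and mm10, without versions. The deposited table holds the authors' read counts per gene, which were used here, and FPKM values, normalized signal per genotype, log2 fold changes and p-values of the authors' comparison, which were not used. Identifiers of 3 of the 9 members in the table did not match GENCODE M21, so genes were matched by symbol.

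Counts were fitted in R 4.3.3 with edgeR 4.0.16 (filterByExpr, 14990 genes; TMM; robust quasi-likelihood test; Benjamini-Hochberg, threshold 0.05; 4 against 5 libraries). Standard errors were obtained by dividing the log2 fold change by the root of F. For pair sums, the rows of a pair were replaced by their sum. On simulated counts of 14746 genes, 174 of 200 genes changed by 1 on the log2 scale were recovered. The log2 fold changes of the members were smaller (at most 0.55), and recovery of changes of that size was not tested. The members, gene lists and tests were chosen with earlier results of these data known. Named genes were the 10 members, *Uqcrq*, copies of members (-ps or rt), other ribosomal paralogs, the 3 largest rises and falls past the threshold among core genes, *Cdkn1a*, *Mdm2*, and the 3 genes most correlated with each called member. Alternatives were DESeq2 1.42.0, limma-voom (limma 3.58.1), other normalizations and filters, a covariate of Y-linked expression and each library left out. Sequences and figures were made with Python 3.11.15, Biopython 1.88 and matplotlib 3.10.9.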

Additional observations from a re-analysis of the deposited data

How the results depend on the processing

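DESeq2 and limma-voom with sample quality weights gave more calls than edgeR. Among the members, 5 were called higher by DESeq2 (where 11.7% of all genes were) and 7 by limma-voom (16.1%), against 1 by edgeR, and among the core genes 40 and 72 against 23. By DESeq2 the log2 fold changes that passed in addition were 0.341 for *Rpl22*, 0.476 for *Rps27*, 0.417 for *Rpl36a* and 0.449 for *Rpl39*. By limma-voom they were 0.406 for *Rpl22*, 0.619 for *Rps27*, 0.381 for *Rpl7*, 0.529 for *Rpl36a*, 0.507 for *Rpl36al* and 0.576 for *Rpl39*, and all 4 pair sums passed, with 0.508 for *Rps27*/*Rps27l*, 0.33 for *Rpl7*/*Rpl7l1* and 0.52 for *Rpl36a*/*Rpl36al*. The core count was 10 with upper-quartile normalization (6.77% of all genes) and 11 with the Y-linked covariate (6.47% of all genes). Scaling by library totals alone moved the median of all genes to −0.103 and that of the core genes to 0.302. The cause of these differences was not tested.

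With 1 library left out, 0 to 5 members, 0 to 1 pair sums and 1 to 47 core genes were called higher. The share of all tested genes called higher ran from 3.64% (without Cont 73) to 10.8% (without QpcKO 74). The highest member and core counts came without QpcKO 74, and 0 members and pair sums were called without Cont 72, Cont 73, QpcKO 75, QpcKO 77 or QpcKO 78. Log2 fold changes then ran from 0.463 to 0.631 for *Rpl22l1*, 0.27 to 0.384 for *Rpl22*, 0.338 to 0.547 for *Rps27*, 0.294 to 0.483 for *Rpl36a*, 0.315 to 0.546 for *Rpl39* and 0.364 to 0.495 for the *Rpl22*/*Rpl22l1* sum. Other ranges were 0.0389 (without Cont 72) to 0.262 for *Rps27l*, 0.157 (without Cont 72) to 0.343 for *Rpl7*, −0.101 (without Cont 72) to −0.00033 for *Rpl7l1*, 0.233 (without QpcKO 78) to 0.453 for *Rpl36al*, 0.124 (without Cont 72) to 0.295 for the *Rpl7* pair sum, 0.247 (without QpcKO 78) to 0.443 for the *Rps27* pair sum and 0.267 (without QpcKO 78) to 0.47 for the *Rpl36a* pair sum. The share difference ran from −5.33 to −3.84 points for *Rps27l* and from −2.88 to −2.01 points for *Rpl7l1*. Reads per kilobase and the log2 ratio changed no call on a share, in any of the 4 pairs, nor did 2 other sets of gene lengths (all annotated exons, the longest coding transcript), chosen after seeing the data. Adding copies named after a member bore on the *Rps27* and *Rpl36a* pairs only (up to 119 and 78 reads), since it added 0 reads to the *Rpl7* pair and at most 2 to the *Rpl22* pair. Adding copies found by shared sequence, also chosen after seeing the data, put 110 to 185 reads on *Rpl7* and changed no call, and copies not analysed here were not covered. Of the reads per 100 core reads, the small differences of *Rps27* (−0.00277 without QpcKO 78), *Rpl36a* (0.000495 without QpcKO 75, 0.00222 without QpcKO 77) and *Rpl39* (−0.00117 without Cont 71, −0.00916 without QpcKO 78) changed sign, and none of them passed a test; with 1 library left out they ran from −0.00277 to 0.0317, from −0.0154 to 0.00222 and from −0.00916 to 0.0157. No paired analysis was possible because the genotypes share no replicate number. The lowest count of any member in a library was 2389 reads, so the spread between libraries and not the depth limits these comparisons.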
